A study of Mus musculus with 8 samples.

Results

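Proliferating T cells of the deep cervical lymph nodes, the nodes that drain the brain and its coverings, were described in mice with and without a glioma. They were chosen by their own measured UMIs (unique molecular identifiers, each a captured transcript). Barcodes were kept with 500 or more genes detected and no more than 10% of UMIs from mitochondrial genes. A kept barcode was called a T cell when it held at least 2 UMIs of Cd3e, Cd3d and Cd3g together and none of the B cell gene Cd79a. A T cell was called proliferating when at least 3 of the 6 genes Mki67, Top2a, Pclaf, Birc5, Ube2c and Stmn1 had a UMI. This gave 407 proliferating T cells of 30084 T cells, among 49060 barcodes kept of 49399.

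Antigen drives naive T cells out of a resting state held by factors such as Klf2, and the cell then grows, copies its DNA and divides within a lymph node before its daughters leave. E2F factors switch on the replication genes in late G1, and the DREAM and B-Myb/FoxM1 complexes hold back and later switch on the mitotic genes. Regulatory T cells, which carry the transcription factor Foxp3 and restrain immune responses, are known to divide in the absence of infection more often than conventional T cells.

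Single-cell 5' expression libraries (10x Genomics, V2 chemistry) were made from live immune cells of C57BL/6 mice sorted 20 days after an intracranial injection. There was 1 library per group and no replicate, so no difference was tested, and every interval given is a 95% interval for counting error alone. The depleted anti-CTLA-4 library came from mice with GL261 cells (a mouse glioma line) in the brain, given anti-CD20, which removes B cells, and anti-CTLA-4, which blocks an inhibitory receptor of T cells. The depleted isotype library came from GL261 mice given anti-CD20 and isotype IgG. The anti-CTLA-4 library came from GL261 mice with B cells given anti-CTLA-4, and the isotype library from GL261 mice with B cells given isotype IgG. The saline library came from mice injected with DPBS in place of tumor cells. The sources at hand do not give how many mice were pooled into a library or whether the saline mice received isotype IgG.

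The 6 genes of the gate mark different steps of the cycle. Mki67 encodes the Ki-67 protein that coats mitotic chromosomes, Top2a the topoisomerase that untangles DNA, Birc5 the survivin subunit of the chromosomal passenger complex, and Ube2c the ubiquitin-conjugating enzyme of the anaphase-promoting complex. Pclaf encodes a factor bound to the replication clamp PCNA, and Stmn1 encodes stathmin, which destabilises microtubules. The promoters of the 3 cycle genes that mark these cells, and of Pclaf as the replication gene among the 6, are printed for their different control letters. Each covers 250 bases before to 50 bases after the transcription start, from RefSeq on GRCm38.p6, read 5′ to 3′ on the strand of the gene. Capitals mark CCAAT (the letters bound by NF-Y, ATTGG on the other strand), TTTGAA (the core of the CHR element bound by the DREAM and MuvB complexes, TTCAAA on the other strand) and GCGGGAA (an E2F site).
Mki67, chr7:135716330-135716629, minus strand: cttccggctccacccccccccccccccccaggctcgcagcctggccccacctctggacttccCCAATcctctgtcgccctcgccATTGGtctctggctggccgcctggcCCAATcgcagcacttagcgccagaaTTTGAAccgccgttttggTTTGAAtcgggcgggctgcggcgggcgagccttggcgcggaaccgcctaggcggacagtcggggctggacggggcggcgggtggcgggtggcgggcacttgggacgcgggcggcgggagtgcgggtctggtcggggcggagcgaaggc
Top2a, chr11:99024140-99024439, minus strand: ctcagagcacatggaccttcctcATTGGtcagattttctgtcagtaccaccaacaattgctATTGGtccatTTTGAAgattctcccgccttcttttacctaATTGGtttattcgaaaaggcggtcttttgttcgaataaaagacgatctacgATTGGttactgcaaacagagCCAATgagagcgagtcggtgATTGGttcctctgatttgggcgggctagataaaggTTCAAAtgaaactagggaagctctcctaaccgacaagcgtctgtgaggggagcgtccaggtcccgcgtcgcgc
Birc5, chr11:117848987-117849286, plus strand: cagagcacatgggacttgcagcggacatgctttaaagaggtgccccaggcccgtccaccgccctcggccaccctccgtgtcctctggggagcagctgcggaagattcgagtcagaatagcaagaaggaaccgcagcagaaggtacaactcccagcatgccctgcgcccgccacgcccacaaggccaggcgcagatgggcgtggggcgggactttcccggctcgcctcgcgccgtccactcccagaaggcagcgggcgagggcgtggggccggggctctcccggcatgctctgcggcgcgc
Pclaf, chr9:65890073-65890372, plus strand: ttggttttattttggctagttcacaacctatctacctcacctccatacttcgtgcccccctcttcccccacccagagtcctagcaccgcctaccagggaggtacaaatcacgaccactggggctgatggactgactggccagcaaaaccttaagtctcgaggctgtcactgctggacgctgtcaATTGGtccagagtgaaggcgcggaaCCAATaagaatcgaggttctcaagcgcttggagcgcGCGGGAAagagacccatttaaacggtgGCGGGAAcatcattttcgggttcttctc

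Mki67 held 3 CCAAT and 2 TTTGAA matches, and Top2a held 6 and 2. Pclaf held 2 CCAAT and 2 GCGGGAA matches and no TTTGAA, while Birc5 held none of the 3. Over both strands, CCAAT was found in 4 of the 5 gate promoters at hand, TTTGAA in 3 and GCGGGAA in 1. Among 32851 promoter windows of the same length, 37.4% held CCAAT, 17.9% TTTGAA and 4.60% GCGGGAA. In the mitotic gene list described further on, 21 of 24 promoters (87.5%) held CCAAT, 19 (79.2%) TTTGAA and 0 GCGGGAA. In the replication gene list, 12 of 21 (57.1%) held CCAAT, 2 (9.52%) TTTGAA and 10 (47.6%) GCGGGAA. A match is only a run of letters, and a missing match says nothing about binding of the factor.

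The gate separated cells with many cycle transcripts from cells with almost none. Of the 407 members, 220 (54.1%) had UMIs of all 6 genes, 78 of 5, 51 of 4 and 58 of 3. Of the other T cells, 24414 had none, 4931 had 1 and 332 had 2. Since the gate chose the cells on these genes, their levels are a description. Mki67 had 5.01, 5.46, 6.44, 3.91 and 5.43 UMIs per 10000 in the proliferating T cells of the depleted anti-CTLA-4, depleted isotype, anti-CTLA-4, isotype and saline libraries, against 0.0196 in all other T cells. Top2a had 4.36, 5.07, 5.65, 3.90 and 5.46 per 10000 in the same order, against 0.0791. Both were lowest in the isotype library. Birc5 had 2.96, 3.52, 3.63, 3.29 and 3.96 per 10000 in that order, against 0.00427 in other T cells, and Cd3e had 7.03 over all members, against 7.92 in other T cells. The 4 marker genes of the label were thus all present, but this is no independent check. Mki67, Top2a and Birc5 are genes of the gate, and Cd3e counts toward the T cell call. At the edge of the gate, the 58 cells with 3 gate genes had 1.13 Mki67 and 0.423 Pclaf UMIs per 10000 at a median of 15148 UMIs, against 0.280 and 0.106 in the 332 cells with 2 gate genes at a median of 8814 UMIs.

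Proliferating T cells were large in RNA terms. Their median was 23146, 20992, 18976, 22983 and 23575 UMIs per cell in the depleted anti-CTLA-4, depleted isotype, anti-CTLA-4, isotype and saline libraries, against 6060, 5992, 5152, 5792.5 and 5763 in the other T cells. A deeper cell meets the gate more easily, so shares were also computed after every cell had been thinned to 2000 UMIs. The highest Scrublet doublet scores, taken at 0.8% per 1000 barcodes, fell on 10 of 128, 6 of 118, 17 of 73, 3 of 45 and 17 of 43 proliferating T cells in the same order. As a share that was 7.81%, 5.08%, 23.3%, 6.67% and 39.5% of members, against 7.40%, 7.45%, 2.70%, 1.70% and 3.06% of other T cells. The part of doublets in the results was not tested, and values without the marked cells are given under the processing alternatives.

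B cell transcripts in the members were far below those of B cells and on both sides of those of other T cells. The 10 listed B cell markers summed to 2.75, 9.15, 7.40, 2.36 and 5.28 UMIs per 10000 in the members of the depleted anti-CTLA-4, depleted isotype, anti-CTLA-4, isotype and saline libraries, against 3.42, 3.22, 4.59, 4.38 and 3.71 in other T cells and 272 to 363 in B cells. In the depleted isotype and anti-CTLA-4 members, where the sum was highest, 1 cell held 47.5% and 54.6% of it. Without that cell the sum was 4.86 and 3.42 per 10000, above other T cells in the depleted isotype library and below them in the anti-CTLA-4 library. Ms4a1, which encodes CD20, was at 0 in the members of all libraries but anti-CTLA-4. A heavy-chain contig was assembled for 0 of 73, 0 of 45 and 0 of 43 members of the anti-CTLA-4, isotype and saline libraries. The exact intervals of these shares reach up to 4.93%, 7.87% and 8.22%. It was found in 88.4%, 86.1% and 89.3% of their B cells and in 0.122%, 0.0774% and 0.142% of their other T cells. The counts of 0 thus do not set members apart from other T cells. A contig of any chain was found in 1 of 43 saline members. Between 108 and 163 barcodes were shared by each pair of libraries, and none of them was a proliferating T cell in both.

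Proliferating cells made up between 1.01% and 1.51% of the T cells of each library. The share was 1.51% (128 of 8480 T cells, exact interval 1.26 to 1.79) after depletion with anti-CTLA-4 and 1.40% (118 of 8425, 1.16 to 1.68) after depletion with isotype IgG. It was 1.46% (73 of 4993, 1.15 to 1.83) under anti-CTLA-4, 1.15% (45 of 3923, 0.838 to 1.53) under isotype and 1.01% (43 of 4263, 0.731 to 1.36) with saline. The 5 ratios between libraries lay between 1.03 for depleted anti-CTLA-4 over anti-CTLA-4 (0.776 to 1.37) and 1.27 for anti-CTLA-4 over isotype (0.881 to 1.84). All 5 intervals held 1. Without the cells of highest doublet score, isotype over saline was 1.73 (1.06 to 2.81), from 42 of 3854 and 26 of 4117 T cells, since 3 isotype and 17 saline members were marked, and in regulatory cells it was 4.74 on 10 and 2 cells. The anti-CTLA-4 over isotype, depleted isotype over isotype and isotype over saline ratios share the isotype library.

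After thinning, the anti-CTLA-4 library stood highest. Over 10 random draws the median share was 0.707% for depleted anti-CTLA-4, 0.726% for depleted isotype, 0.961% for anti-CTLA-4, 0.646% for isotype and 0.631% for saline. The T cell call and the gate were made again on the thinned counts. The draw of fixed seed gave 7734, 7620, 4752, 3655 and 3962 T cells in that order of libraries. The thinned shares are thus not of the same T cells as before. Whether barcodes first left out for Cd79a entered them was not tested. The ratio of anti-CTLA-4 over isotype was 1.54 at the median of the draws (1.20 to 1.87), and its counting interval lay above 1 in 5 of 10 draws. Depleted anti-CTLA-4 over anti-CTLA-4 was 0.739 (0.615 to 0.818), with an interval below 1 in 3 of 10 draws. B cells, gated on Cd79a with the same 6 genes, gave 16 proliferating cells of 87 for depleted anti-CTLA-4, 13 of 58 for depleted isotype, 155 of 5196 (2.98%) for anti-CTLA-4, 74 of 4721 (1.57%) for isotype and 22 of 4502 (0.489%) for saline.

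**Figure D1:**
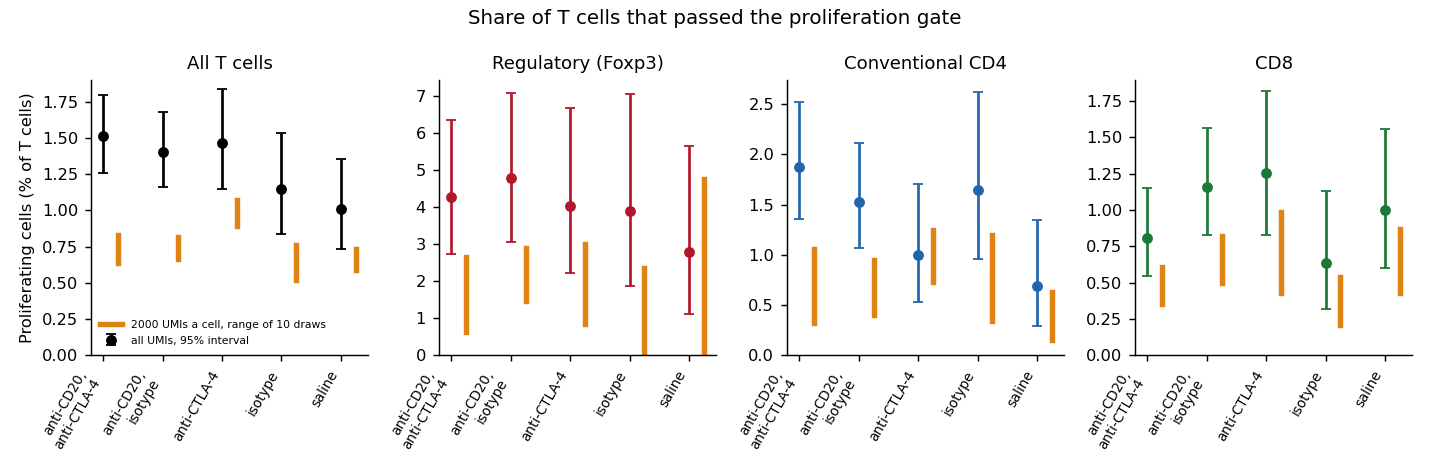
Proliferating cells as a percent of all T cells and of each subset (vertical axes) in the 5 libraries, as points with exact 95% intervals, and as orange bars the range over 10 draws at 2000 UMIs per cell. The share over all T cells stayed between 1.01% and 1.51%, while regulatory T cells stood at 2.78% to 4.77%.

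T cells were sorted into subsets by 3 genes. Cd4 encodes the coreceptor of helper and regulatory cells, Cd8b1 the beta chain of the CD8 coreceptor of cytotoxic cells, and Foxp3 the regulatory lineage factor. A cell with Foxp3 and without Cd8b1 counted as regulatory, with Cd4 alone as conventional CD4, with Cd8b1 alone as CD8, with Cd8b1 and Cd4 or Foxp3 as mixed, and with none as undetermined. Of the 407 members, 77 (18.9%) were regulatory, 116 (28.5%) conventional CD4, 128 (31.4%) CD8, 73 (17.9%) mixed and 13 (3.19%) undetermined. Other T cells were 6.07% regulatory, 26.8% conventional CD4, 43.5% CD8, 5.83% mixed and 17.7% undetermined.

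As deposited, regulatory T cells were the subset with the highest proliferating share in every library, mixed cells apart. The share was 4.27% (2.72 to 6.33) for depleted anti-CTLA-4, 4.77% (3.05 to 7.07) for depleted isotype, 4.03% (2.22 to 6.68) for anti-CTLA-4, 3.89% (1.88 to 7.04) for isotype and 2.78% (1.12 to 5.64) for saline. Over all libraries 4.10% of regulatory T cells were proliferating, against 1.44% of conventional CD4 and 0.981% of CD8 T cells. After thinning to 2000 UMIs, the median regulatory share over 10 draws was 1.39%, 2.17%, 2.17%, 1.23% and 1.73% in the same order of libraries, against 0.456% to 0.901% across libraries in conventional CD4 and 0.468% to 0.760% in CD8 cells. Single draws did not keep that order, and the regulatory share reached 0 in a draw of the isotype and of the saline library, with 0 of 174 isotype cells in the draw of fixed seed. Depth bears on these calls, since a deeper cell shows Foxp3 more often. Among T cells with at least 10000 UMIs, a comparison chosen after seeing the data, regulatory cells were 19.1% of 367 proliferating cells (15.2 to 23.5) and 7.18% of 2548 others. That minimum did not make the depths equal, since the members kept there had medians of 19962 to 24198 UMIs by library and the others 11586 to 12234. There CD8 cells were 31.3% of the proliferating cells against 50.4% of the others, and conventional CD4 cells 28.9% against 15.7%. In these cells the regulatory share of members was above that of other cells in all 5 libraries.

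Detection of the 3 subset genes depended on depth. Foxp3 had a UMI in 28.5% of members, 7.37% of other T cells and 0.309% of B cells, which should lack it. At 2000 UMIs per cell it was found in 10.1% of the 217 cells in the gate at that depth and 4.41% of the others. Cd8b1 had a UMI in 49.4% of members and 49.4% of others, and after thinning in 31.8% and 41.7%. Cd4 had a UMI in 61.7% of members and 35.6% of others, but in 18.4% and 18.6% after thinning. B cells had a Cd4 UMI in 0.275% and a Cd8b1 UMI in 0.755% of cells.

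Conventional CD4 and CD8 cells did not keep one order between libraries. The proliferating share of conventional CD4 cells was 1.88% (43 cells, 1.36 to 2.52) for depleted anti-CTLA-4, 1.53% (35 cells, 1.07 to 2.12) for depleted isotype, 1.00% (13 cells, 0.535 to 1.71) for anti-CTLA-4, 1.64% (17 cells, 0.961 to 2.62) for isotype and 0.687% (8 cells, 0.297 to 1.35) for saline. For CD8 cells it was 0.808% (30 cells, 0.546 to 1.15), 1.16% (41 cells, 0.831 to 1.56), 1.25% (27 cells, 0.826 to 1.82), 0.634% (11 cells, 0.317 to 1.13) and 1.00% (19 cells, 0.604 to 1.56) in the same order. CD8 cells thus outnumbered conventional CD4 cells among the members of the depleted isotype, anti-CTLA-4 and saline libraries and not in the other two. The conventional CD4 ratio was 2.39 for isotype over saline (1.04 to 5.52) and 1.87 for depleted anti-CTLA-4 over anti-CTLA-4 (1.01 to 3.47), the ratios among these 3 subsets whose intervals did not hold 1. After thinning to 2000 UMIs the first was 1.67 at the median of 10 draws (1.10 to 7.72) and the second 0.843 (0.324 to 1.30), and the interval held 1 in every draw, so neither was resolved at that depth.

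Of the 73 mixed cells, 16 carried a high doublet score, 30 held only 1 Cd8b1 UMI beside Cd4 or Foxp3, and 32 held at least 2 UMIs on both sides. They made up 18 of 73 members of the anti-CTLA-4 library, 10 of them with a single Cd8b1 UMI, and 6 of 45 isotype members. With 2 UMIs needed for a subset call these shares were 11.0% and 11.1%. In the saline library 3 of 43 members carried UMIs of Rag1, a recombinase gene of immature lymphocytes, with 70 UMIs of Dntt, the terminal transferase of the same stage, and 1 of Trac. Rag1 had a UMI in 0 of the 364 members of the other libraries. A count of 0 allows up to 3 cells of the total, here 0.824%, and it limits cells with a UMI and not cells that express the gene.

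**Figure D2:**
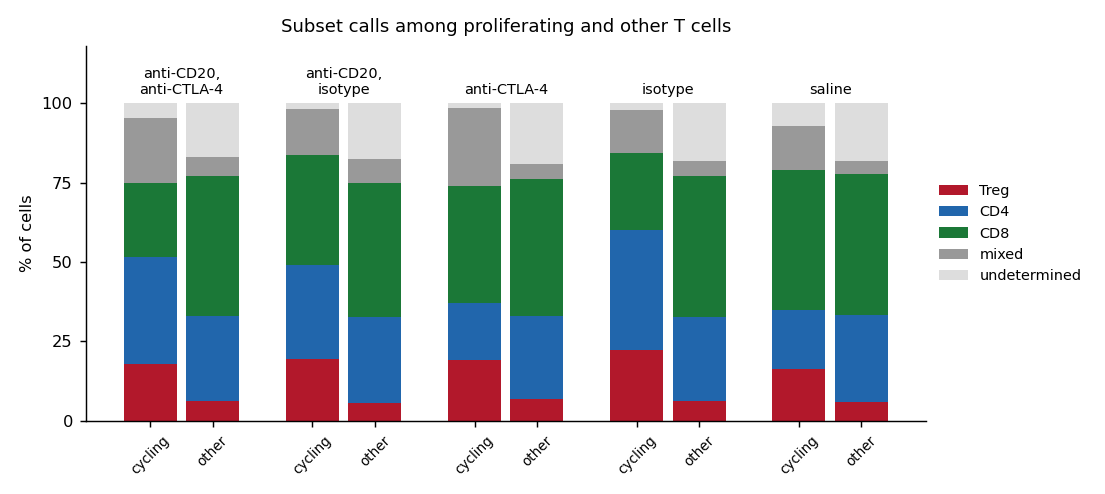
Stacked percent of cells (vertical axis) with each subset call, for the proliferating (cycling) and the other T cells of each library. Regulatory cells were 18.9% of all members and 6.07% of all other T cells.

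Outside the gate, the members carried the whole replication and division programme in all 5 libraries. The contrast with other T cells is the one the gate used, so counts are given as a description. Of 12939 genes with at least 100 UMIs, 12.7% were at least 1.5-fold higher in the members of every library and 4.42% at least 1.5-fold lower. All 25 replication genes outside the gate were among the higher genes, with a median log2 ratio of 3.16 against 0.07 over all genes. So were 27 of 28 mitotic genes (median 6.97) and 14 of 14 histone and chromatin assembly genes (2.92). Against other T cells with at least 10000 UMIs the medians were 2.69 for the replication and 6.14 for the mitotic genes, and 8.89% of 10732 genes were higher in all libraries.

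Rrm2, the ribonucleotide reductase subunit made in S phase, had 2.13, 2.49, 3.06, 3.90 and 3.01 UMIs per 10000 in the members of the depleted anti-CTLA-4, depleted isotype, anti-CTLA-4, isotype and saline libraries, against 0.0288, 0.0215, 0.0240, 0.0211 and 0.0308 in other T cells. Ccna2, cyclin A2, had 1.64, 1.70, 2.06, 1.83 and 2.08 per 10000 in the same order of members, with 1734 UMIs in 266 members and 69 UMIs in all 29677 other T cells. Every library's members stood above the other T cells of all 5 libraries for both genes. The genes with the highest ratios outside the gate were rare in other T cells. Pimreg, a mitotic regulator, had 251 UMIs in members and 3 in other T cells, Kif18b, a kinesin of mitotic microtubules, 279 and 5, and Ccnb2, cyclin B2, 2047 and 79. The others among the 15 highest were Hmmr, Ankle1, Iqgap3, Lrr1, Pbk, E2f8, Neil3, Ska1, Mxd3, Espl1 and Kif2c.

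Glycolysis and nucleotide synthesis genes were higher and naive T cell genes lower in the members. Of 11 glycolysis genes 7 were at least 1.5-fold higher in every library (median log2 ratio 1.36), as were 8 of 14 nucleotide and one-carbon synthesis genes (1.07), among them Tyms, thymidylate synthase. Of 15 Myc target and ribosome biogenesis genes 1 was at least 1.5-fold higher in every library (0.46), and 8 were higher by any margin. Of 11 naive T cell genes none was higher in every library and 7 were at least 1.5-fold lower (median -1.12). By any margin 9 were lower. Over all 12939 genes, 4054 were higher and 2697 lower by any margin in every library. Against other T cells with at least 10000 UMIs, 4 of 11 glycolysis, 4 of 14 nucleotide synthesis and 1 of 15 Myc target genes were 1.5-fold higher. Over all 10732 genes in that comparison, 8.89% were 1.5-fold higher and 3.11% lower in every library. There 4 of 11 naive genes were 1.5-fold lower, and the medians were 1.16, 0.82, 0.13 and -1.03 in that order. The resting-state factor Klf2 had 2.21, 2.08, 2.86, 2.08 and 2.57 UMIs per 10000 in the members of the depleted anti-CTLA-4, depleted isotype, anti-CTLA-4, isotype and saline libraries, against 7.24, 5.89, 8.21, 8.98 and 8.57 in other T cells. The antiproliferative gene Btg1 had 3.67, 4.10, 4.03, 3.01 and 4.60 per 10000 in members, against 10.0, 9.43, 11.0, 10.7 and 10.4. Both genes were lower in the members of every library. Ccr7, the lymph node homing receptor, had 4.47, 5.88, 5.67, 4.36 and 8.40 per 10000 in members, against 4.86, 5.25, 5.91, 5.25 and 5.59, so it was on both sides. The lowest ratios belonged to Ly6c1, a Ly6 family surface protein (85 UMIs in members, 11705 in others, median log2 ratio -3.50), and Igfbp4, which marks naive T cells (617 and 91629, -3.10). The rest of the 10 lowest were Tgtp1, Cyp2d22, Ggt5, Peg13, Pdlim4, Slc16a5, Palm3 and Acvrl1.

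Replication and mitotic transcripts were present in different balance. The summed replication list had 37.2, 38.0, 42.5, 48.6 and 38.8 UMIs per 10000 in the members of the depleted anti-CTLA-4, depleted isotype, anti-CTLA-4, isotype and saline libraries, and the mitotic list 32.1, 36.0, 41.5, 28.7 and 41.1. Mitotic UMIs were thus 46.3%, 48.6%, 49.4%, 37.1% and 51.4% of the sum in that order, lowest in the isotype library. Counted by cell, mitotic UMIs were over 50% of the sum in 54 of 126, 63 of 116, 35 of 73, 20 of 44 and 17 of 42 members with at least 10 such UMIs, where the isotype library was not the lowest. In the isotype library the conventional CD4 members had the lowest summed share, 32.6%.

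**Figure D3:**
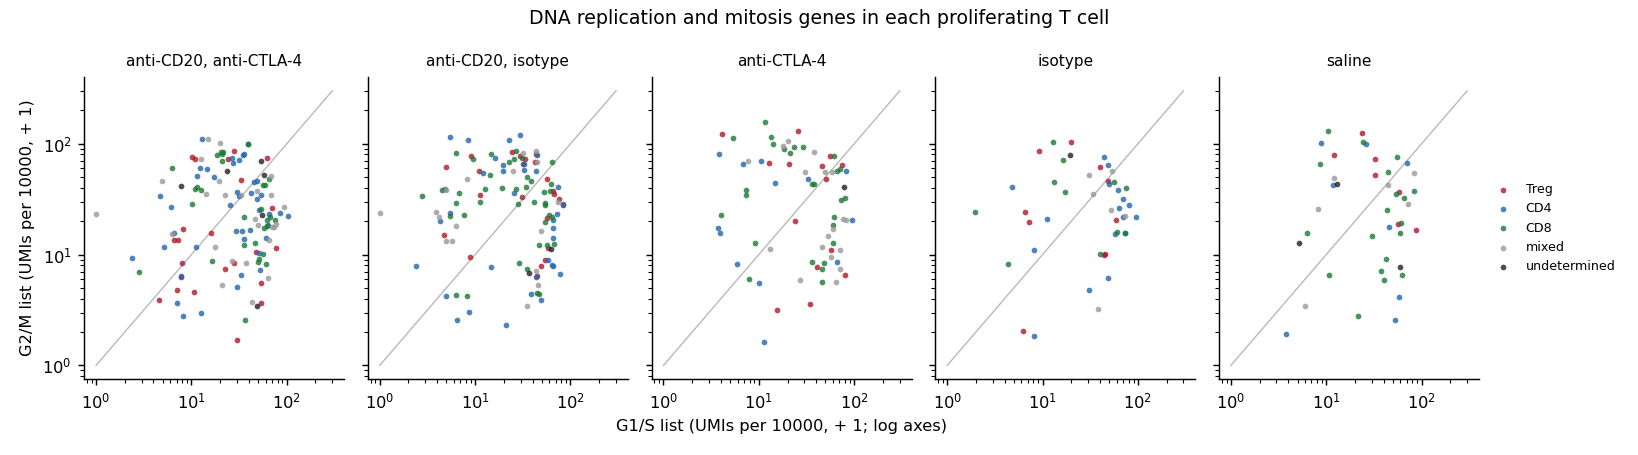
Mitotic list (vertical axis) against replication list (horizontal axis) in UMIs per 10000 plus 1, on log axes, with 1 point per proliferating T cell coloured by subset and the line of equality in grey. Summed over cells, mitotic UMIs were 37.1% of both lists in the isotype members and 46.3% to 51.4% in the other libraries.

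Proliferating regulatory T cells were then set against other regulatory T cells, 77 against 1800 cells with the 5 libraries summed, where 16.3% of 8561 genes were at least 1.5-fold higher and 18.8% at least 1.5-fold lower. They carried less Foxp3, Il2ra and Il7r RNA per 10000 UMIs than other regulatory T cells, and more Cxcr3. Foxp3 had 2.16, 2.35, 1.74, 1.67 and 2.71 UMIs per 10000 in the members of the depleted anti-CTLA-4, depleted isotype, anti-CTLA-4, isotype and saline libraries, against 4.46, 4.27, 5.20, 5.12 and 4.95 in other regulatory cells. It was lower in every library, with a summed ratio of 0.458 (0.41 to 0.51), and a gene used for the subset call needs fewer UMIs per 10000 in a deeper cell. Among cells with at least 10000 UMIs the ratio was 0.66. Il7r, the receptor chain for the survival cytokine IL-7, had 0.491, 0.767, 0.639, 0.209 and 0.860 per 10000, against 1.65, 1.66, 1.78, 1.59 and 1.97. Cxcr3, a chemokine receptor of type 1 responses, had 0.641, 0.436, 1.14, 0.961 and 0.596 per 10000, against 0.314, 0.313, 0.259, 0.530 and 0.269. Ctla4 itself, the target of the antibody, had 7.98 per 10000 over all proliferating regulatory cells against 8.46, a ratio of 0.94. Of the regulatory T cell list, 6 of 14 genes were lower and none higher, and of the naive list 8 of 11 were lower. Of 10 glycolysis genes with enough UMIs, 7 were higher.

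Proliferating conventional CD4 cells (116 against 7964) had more follicular helper, receptor and glycolysis genes above other conventional CD4 cells than the background share. Where 24.5% of 10647 genes were higher and 22.3% lower, 11 of 15 follicular helper genes, 9 of 13 inhibitory and costimulatory receptors and 9 of 11 glycolysis genes were higher, and 9 of 11 naive genes were lower. Of 13 regulatory T cell genes 8 were higher and 2 lower, and 14 of 14 nucleotide synthesis genes were higher. Of 13 type 1 and effector genes 8 were higher and 3 lower, and of 12 early activation genes 4 were higher and 3 lower. The follicular helper genes were not particular to CD4 cells, since 7 of 10 were higher in proliferating CD8 cells (background 22.7%). Over all members, 4 of 15 were at least 1.5-fold higher in every library (background 12.7%). Against other T cells with at least 10000 UMIs that was 1 of 13 (background 8.89%). Tnfrsf4, the costimulatory receptor OX40, had 3.68, 4.75, 1.87, 6.43 and 1.07 UMIs per 10000 in the members of the depleted anti-CTLA-4, depleted isotype, anti-CTLA-4, isotype and saline libraries, against 0.931, 0.722, 1.30, 0.822 and 0.810. It was higher in every library, by 1.33 to 7.82 times. Cxcr3 had 0.769, 0.527, 0.998, 1.15 and 0.597 per 10000, against 0.126, 0.106, 0.203, 0.152 and 0.136. It had a UMI in 59 of the 116 cells, the inhibitory receptor gene Pdcd1 in 45 and both in 29. Among cells with at least 10000 UMIs, Cxcr3 had a UMI in 51.9% of members, 16.0% of other CD4 cells and 11.1% of B cells, and Pdcd1 in 40.6%, 19.8% and 0.641%. Members were the deeper cells there, at a median of 23762 UMIs against 12047 in other CD4 cells and 14622 in B cells. Pdcd1 had a UMI in 0 of the 8 saline cells, which allows a UMI in up to 37.5% of such cells. The follicular receptor gene Cxcr5 was found in 30 of 116, of which 14 also had Pdcd1, and the helper cytokine Il21 in 11 of 116, of which 9 had Pdcd1. Il7r was at 0.122 of the level of other CD4 cells, and at 0.21 among cells with at least 10000 UMIs. In those cells the ratio of Tnfrsf4 was 2.11 rather than 4.80, that of Cxcr3 2.99 rather than 5.75, and that of the inhibitory receptor gene Lag3 1.02 rather than 2.28.

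Proliferating CD8 cells (128 against 12921) had the lymph node homing receptor gene Ccr7 within 1.5-fold of other CD8 cells and carried inhibitory receptor transcripts that were rare in other CD8 cells. Where 22.7% of 11384 genes were higher and 16.5% lower, 10 of 13 inhibitory and costimulatory receptors were higher, 7 of 11 naive genes were lower, and 10 of 13 type I interferon response genes were lower. Pdcd1 had 0.605, 0.151, 0.129, 0.341 and 0.467 UMIs per 10000 in the members of the depleted anti-CTLA-4, depleted isotype, anti-CTLA-4, isotype and saline libraries, against 0.0241, 0.0225, 0.0380, 0.0226 and 0.0600. Lag3, an inhibitory receptor that binds MHC class II, had 0.634, 0.301, 0.203, 0.256 and 0.757 per 10000, against 0.0237, 0.0410, 0.0387, 0.0453 and 0.0431. Both were higher in the members of every library, with summed ratios of 10.5 and 11.9, and 7.93 and 4.09 among cells with at least 10000 UMIs. Ccr7 had 6.56 per 10000 over all CD8 members against 4.85, a ratio of 1.35, and 1.33 among cells with at least 10000 UMIs.

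The inhibitory receptor genes were detected in a minority of CD8 members. Pdcd1 had a UMI in 26 of the 128 proliferating CD8 cells, and 24 of those also had Ccr7, which 118 of the 128 held. Lag3 was found in 40 cells, and Pdcd1 and Lag3 together in 16. Among cells with at least 10000 UMIs, Pdcd1 had a UMI in 21.7% of members, 2.81% of other CD8 cells and 0.641% of B cells, Lag3 in 34.8%, 5.38% and 3.85%, and Ccr7 in 92.2%, 91.8% and 63.5%. Members were the deeper cells there too, at a median of 21390 UMIs against 11665 in other CD8 cells. Lag3 was found in 15 of 30, 9 of 41, 4 of 27, 4 of 11 and 8 of 19 proliferating CD8 cells of the depleted anti-CTLA-4, depleted isotype, anti-CTLA-4, isotype and saline libraries. Gzmb, the cytotoxic protease granzyme B, was found in 9 of 128. By library these were 2 of 30, 4 of 41, 0 of 27, 0 of 11 and 3 of 19 cells in the same order, and the counts of 0 allow a UMI in up to 11.1% and 27.3% of such cells. Il7r had 0.77 per 10000 in members against 3.00, a ratio of 0.26, which was also the ratio among cells with at least 10000 UMIs.

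**Figure D4:**
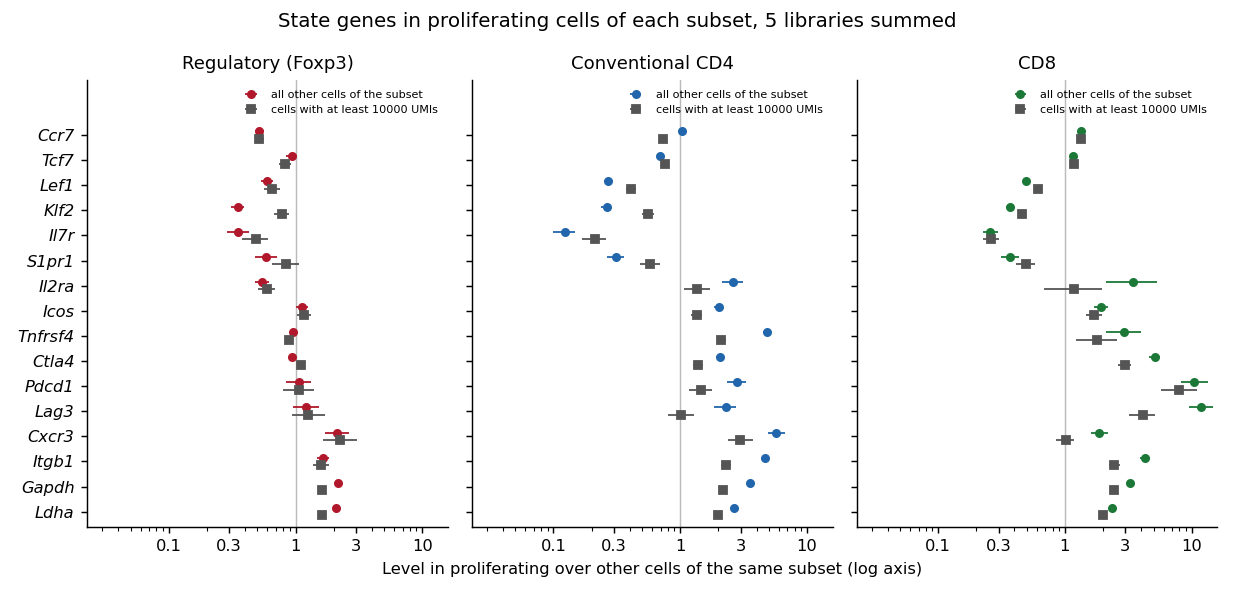
Level of 16 genes in proliferating over other cells of the same subset (horizontal log axis) with the 5 libraries summed and 95% counting intervals, coloured against all other cells and grey against cells with at least 10000 UMIs. Il7r was lower in each of the 3 subsets (ratios of 0.352, 0.122 and 0.26), while Pdcd1 was 10.5 times higher in CD8 cells.

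Between libraries, the members of the isotype library stood apart from those of the saline library by growth genes. Of 3565 genes with at least 100 UMIs, 12.0% were at least 1.5-fold higher and 11.2% lower. Bhlhe40, a transcription factor of activated T cells, had 3.11, 2.33, 1.48, 5.09 and 1.55 UMIs per 10000 in the depleted anti-CTLA-4, depleted isotype, anti-CTLA-4, isotype and saline members. Tpi1, a glycolysis enzyme, had 1.99, 1.96, 2.02, 3.65 and 1.24, and Srm, the spermidine synthase and a Myc target, 0.914, 1.12, 0.612, 2.31 and 0.863. All 3 were highest in the isotype members. Isotype over saline, the ratio was 3.28 for Bhlhe40 (2.74 to 3.94), 2.94 for Tpi1 and 2.68 for Srm, and Tomm40, S100a4 and Pgam1 also stood among the 6 highest. Bach2, a repressor of effector genes, had 2.04, 2.16, 2.25, 0.745 and 2.44 per 10000 in the same order of libraries, and Satb1, a chromatin organiser of naive T cells, 1.82, 2.34, 2.57, 0.972 and 2.84. Both were lowest in the isotype members, with isotype over saline ratios of 0.306 and 0.342, beside Adamts6, Cd8a, Sla2 and Fgf13. CD8 calls made up 11 of 45 isotype members and 19 of 43 saline members. The isotype library also had the lowest mitochondrial share, a median of 0.777% of UMIs per member against 1.34% to 1.70% in the members of the other libraries, and its part in these values was not tested.

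Over all members, isotype over saline, glycolysis and Myc target genes were mostly higher and naive genes mostly lower, but not in CD8 members alone. Where 12.6% of 8183 genes with at least 20 UMIs were higher and 18.3% lower, 9 of 11 glycolysis genes were higher (median log2 ratio 0.91) and so were 11 of 15 Myc target and ribosome biogenesis genes (0.71). Of 11 naive genes 7 were lower (-0.79), and of 28 mitotic genes 12 were lower (-0.50). The subsets differ between these libraries, and so did the values within them. Of the glycolysis genes 5 of 9 were higher in regulatory members (background 15.9%), 8 of 10 in conventional CD4 (26.6%) and 1 of 10 in CD8 members (10.3%). Their medians were 0.80, 1.30 and 0.29 in that order, and those of the naive list -1.35, -1.51 and 0.27. With every cell weighted equally, chosen after seeing the data, the glycolysis median over all members was 0.68, the Myc target median 0.37 and the mitotic median -0.23. The interferon list was 1.24 lower at the median in isotype than in saline members on the log2 scale, where 1 saline cell held 25.7% of its UMIs. Summed, that list had 12.7 UMIs per 10000 in isotype and 16.8 in saline members. Without the top cell of each library the sums were 12.2 and 12.9.

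**Figure D5:**
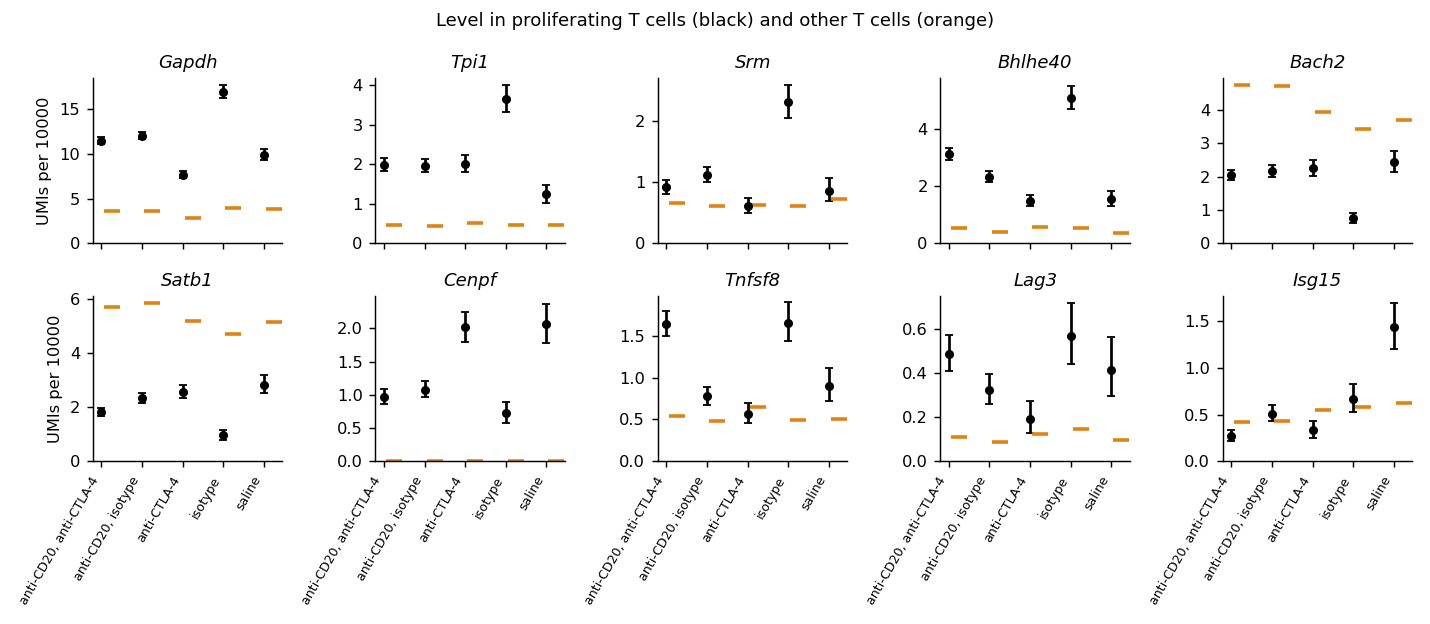
Levels of 10 genes (UMIs per 10000, vertical axes) in the proliferating T cells of the 5 libraries, black with 95% counting intervals, and in the other T cells, orange. Bhlhe40 was highest in the isotype members at 5.09, against 1.55 in the saline members, and Bach2 lowest there at 0.745, against 2.44.

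Under anti-CTLA-4 with B cells present, the members had fewer growth and more naive and mitotic UMIs per 10000 than isotype members. The isotype members stood apart from those of every other library in the glycolysis, Myc target and naive lists. In the mitotic list they were nearer, at 28.7 UMIs per 10000 against 32.1 in the depleted anti-CTLA-4 members. The glycolysis list had 45.8, 46.6, 42.4, 67.8 and 37.5 UMIs per 10000 in the depleted anti-CTLA-4, depleted isotype, anti-CTLA-4, isotype and saline members. The Myc target list had 34.9, 37.8, 31.8, 52.4 and 31.5 in that order. Both were highest, and the naive and mitotic lists lowest, in the isotype members. Anti-CTLA-4 over isotype, 12.8% of 4422 genes were higher and 8.55% lower. The 6 highest were Slc9a9, Id3, Bach2, Arhgap15, Cenpf and Satb1. Id3, an inhibitor of E proteins that is high in resting T cells, had 0.981, 0.638, 1.25, 0.332 and 0.670 UMIs per 10000 in the depleted anti-CTLA-4, depleted isotype, anti-CTLA-4, isotype and saline members, a ratio of 3.76 for anti-CTLA-4 over isotype. Cenpf, a kinetochore protein of G2 and mitosis, had 0.971, 1.08, 2.02, 0.721 and 2.06, a ratio of 2.79, and 1.96 with each cell weighted equally. The 6 lowest were Srm (0.265), Bhlhe40 (0.290), Marcksl1 (0.313), Nolc1 (0.360), Gapdh (0.453) and Bcl2a1b (0.406). At 20 UMIs the background was 19.4% higher and 9.79% lower of 8732 genes. There 13 of 15 Myc target genes (median log2 ratio -0.83) and 5 of 11 glycolysis genes (-0.54) were lower, while 7 of 11 naive genes (0.88) and 14 of 28 mitotic genes (0.59) were higher. Within CD8 members, 27 against 11 cells, 20 of 28 mitotic genes were higher (background 19.4%), with a median of 0.92. The mitotic list summed to 49.9 UMIs per 10000 in anti-CTLA-4 and 30.1 in isotype CD8 members. Counted by cell, only the balance of both cycle lists was taken, which is not the level per 10000. The median mitotic percent of both cycle lists was 54.6% in anti-CTLA-4 and 68.8% in isotype CD8 members. Summed over cells that percent was 57.4% and 43.9%. Mitotic UMIs were over 50% in 15 of 27 and 6 of 11 of these cells. Over all members with at least 10 UMIs of both lists, this held in 35 of 73 anti-CTLA-4 and 20 of 44 isotype cells. CD8 calls made up 27 of 73 anti-CTLA-4 and 11 of 45 isotype members, and the part of this in the summed values was not tested.

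B cell depletion under isotype IgG was set against the same isotype library. Depleted isotype over isotype, 10.5% of 5532 genes were higher and 5.13% lower. Plac8, a small cysteine-rich protein, had a ratio of 6.07, followed among the 6 highest by Bach2 (2.90), Cmss1, Smurf2, Ppm1h and Il6ra, the IL-6 receptor chain (3.22). The 6 lowest were Bhlhe40 (0.457), Dnph1, Marcksl1, Srm (0.485), Magohb and C1qbp. Of 11 naive genes 7 were higher (0.83) and of 15 Myc target genes 4 were lower (-0.42), at a background of 17.2% higher and 7.06% lower of 9329 genes. The values of Bhlhe40, Srm and Bach2 in the 4 libraries other than isotype lay within 1.48 to 3.11, 0.612 to 1.12 and 2.04 to 2.44 per 10000.

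Depletion under anti-CTLA-4 was read on 128 and 73 members, while the comparisons above rest on 45 isotype members. Depleted anti-CTLA-4 over anti-CTLA-4, 2.39% of 6036 genes were higher and 1.99% lower. Tnfsf8, which encodes the CD30 ligand, had 1.64, 0.777, 0.569, 1.65 and 0.903 UMIs per 10000 in the depleted anti-CTLA-4, depleted isotype, anti-CTLA-4, isotype and saline members, a ratio of 2.88 (2.30 to 3.64). Lag3 had 0.485, 0.323, 0.192, 0.567 and 0.416 per 10000, a ratio of 2.53. Eea1, Bhlhe40 (2.11), Farp1 and Slc22a15 completed the 6 highest. The 6 lowest were Cenpf (0.482), Ms4a4c (0.472, and 1.503 in regulatory members alone), Epsti1, Ly6c2, Hist1h2ae and Snx9. With 6.74% of 9627 genes higher and 5.52% lower, 6 of 28 mitotic genes were lower (median log2 ratio -0.39) and 2 of 15 Myc target genes higher (0.35). Within conventional CD4 members 11 of 14 Myc target genes were higher (background 22.4%), with a median of 1.02.

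The anti-CTLA-4 comparison without B cells was read on 128 and 118 members. Depleted anti-CTLA-4 over depleted isotype, 1.72% of 6704 genes were higher and 1.09% lower. Tox2, a factor of follicular helper and chronically stimulated T cells, had 0.274, 0.0816, 0.309, 0.300 and 0.152 UMIs per 10000 in the depleted anti-CTLA-4, depleted isotype, anti-CTLA-4, isotype and saline members, a ratio of 3.37 (2.10 to 5.60). Tbc1d4, a regulator of glucose transporter traffic, had 1.69, 0.805, 1.10, 1.23 and 0.792, a ratio of 2.10, and Tnfsf8 had a ratio of 2.11. In regulatory members alone the ratios of Tox2 and Tnfsf8 were 0.857 and 0.817, in the opposite direction. Mdfic, Arhgap24 and Mpp7 completed the 6 highest. The interferon-induced genes Rtp4 (0.387) and Isg15 (0.524) were among the 6 lowest, beside Kpna2, Hist1h2ae, Patj and Hist1h2ap. With 5.58% of 9999 genes higher and 4.40% lower, 3 of 9 interferon response genes were lower (median log2 ratio -0.32), and 0 of 28 mitotic genes passed 1.5-fold in either direction (-0.19). Within regulatory members, 23 against 23 cells, 16 of 28 mitotic genes were lower (background 15.7%), with a median of -0.61. The drop was not limited to mitotic genes. The replication list held 28.3 against 41.2 UMIs per 10000 and the mitotic list 30.8 against 43.4. Mitotic UMIs were 52.2% against 51.3% of both lists. The median member held 49 against 217 UMIs of the 2 lists.

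Reads of close copies may be split or merged in the deposited counts. Among the genes named this concerns Gapdh, Bcl2a1b, Tgtp1, Ly6c1, Ly6c2, Hist1h2ae and Hist1h2ap, and Cmss1 overlaps Filip1l in the annotation, so their values are uncertain.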

How the data were processed

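Single-cell 5' expression libraries, 1 per group, were deposited as counts, whole UMIs of 32285 genes in each barcode. The file headers name Cell Ranger 7.0.1, and the submitters' processing notes name bcl2fastq 2.20.0 and mm10. Cell calling settings are not stated. The deposited contig tables of 3 B cell receptor libraries were used for heavy-chain presence alone. Libraries held 54715065 to 63497466 UMIs.

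The members and the 32 gene lists were chosen with earlier results of these data known, so no list is independent support. No clustering was used. UMIs were summed over cells and given per 10000. Shares have exact Clopper-Pearson intervals, a gene with UMIs in 0 cells has a limit of 3 cells of the total, ratios of shares log intervals and ratios of UMI rates exact conditional binomial intervals, all at 95%, and with 1 library per group no test was made. UMIs of one cell are not independent, so these intervals understate the spread between cells and cover no variation between mice. Genes were counted past 1.5-fold at 100 UMIs, and list members at 20. Named genes were the 6 highest and 6 lowest ratios by the interval bound nearest 1 in each comparison between libraries, and the 15 highest and 10 lowest by median log2 ratio against other T cells, without receptor, immunoglobulin, mitochondrial, ribosomal protein and unnamed genes and without genes of which 1 cell held over 20% of the UMIs. List members named within subsets are those with most UMIs or the largest differences. Co-detection pairs were chosen after their values were seen.

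Scrublet scores came from scanpy 1.11.5 (numpy 2.4.6, scipy 1.17.1, pandas 2.3.3, matplotlib 3.10.9). The steps were tested on simulated data. Alternatives covered the gate, thinning, doublets, gene filters, scaling, cell weighting and single subsets.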

Additional observations from a re-analysis of the deposited data

Results flagged for a closer look

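The proliferating share within a subset went in opposite directions in pairs of comparisons, with no test of the difference. In regulatory T cells anti-CTLA-4 over isotype was 1.04 with B cells and 0.894 after anti-CD20. In conventional CD4 cells the same comparison gave 0.610 with B cells and 1.23 after anti-CD20, and in CD8 cells 1.97 and 0.699. Anti-CD20 over none gave 0.928 under isotype and 1.87 under anti-CTLA-4 in conventional CD4 cells, and 1.82 and 0.646 in CD8 cells. Of these 10 ratios, 1.87 had a counting interval that did not hold 1 (1.01 to 3.47), and over 10 draws of thinned cells its median was 0.843 (0.324 to 1.30).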

How the results depend on the processing

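No paired analysis was possible because each group had 1 library. Under the other settings, those chosen after seeing the data apart, 200 shares, percents and gene counts stayed within their interval or within 1.5-fold, 46 moved further and 1 reversed, and the cause was not tested. Thinned to 2000 UMIs (draw of fixed seed), the ratio of the proliferating share of conventional CD4 cells was 7.72 for isotype over saline (on 7 and 1 cells, interval 0.952 to 62.5, median 1.67 over 10 draws). It was 0.533 for depleted anti-CTLA-4 over anti-CTLA-4, below 1 in that draw where the unthinned ratio was above (median 0.843, 0.324 to 1.30), and 0.673 for depleted anti-CTLA-4 over depleted isotype (median 1.26, 0.459 to 1.67). Over all T cells depleted anti-CTLA-4 over anti-CTLA-4 was 0.675. Without the highest Scrublet scores isotype over saline was 1.73 in all T cells and 4.74 in regulatory cells. Thinned members were 9.68% regulatory, 13.8% conventional CD4, 1.84% mixed and 44.7% undetermined. With 2 UMIs for a subset call, conventional CD4 was 33.7%, mixed 6.88% and undetermined 8.11%. With mixed cells given to the side with 3 times the UMIs, regulatory was 24.1% and mixed 4.42%.

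Genes past 1.5-fold, higher and lower, followed the minimum. At 20 UMIs they were 1027 and 1498 for isotype over saline, 1697 and 855 for anti-CTLA-4 over isotype, 1603 and 659 for depleted isotype over isotype, 649 and 531 for depleted anti-CTLA-4 over anti-CTLA-4, and 558 and 440 for depleted anti-CTLA-4 over depleted isotype. At 1 UMI they were, in that order, 3001 and 4043, 4775 and 2335, 4973 and 2178, 3428 and 2574, and 2961 and 2684. In conventional CD4 members alone, at 100 UMIs, isotype over saline had 341 and 135 of 1272 genes. Anti-CTLA-4 over isotype had 174 and 415 of 1389 there, and depleted isotype over isotype 366 and 399 of 2482. Depleted anti-CTLA-4 over anti-CTLA-4 had 278 and 101 of 2022. In regulatory members alone the counts were 76 and 45 of 556, 108 and 116 of 797, and 139 and 79 of 1328. They were 61 and 88 of 1186 in the fourth comparison and 89 and 155 of 1715 in the fifth. Fewer genes reached 100 UMIs in these subsets. With each cell weighted equally they were 236 and 232 for isotype over saline, 202 lower in the fourth, and 256 and 137 in the fifth. Without the top cell of each gene, depleted isotype over isotype had 174 lower and depleted anti-CTLA-4 over anti-CTLA-4 232 higher. Against other T cells with at least 10000 UMIs, 954 genes were higher and 334 lower. The equal weighting, the 10000-UMI comparison and the 3-times rule were chosen after seeing the data, as was leaving out cells with Rag1.

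Of the 60 gene ratios named, 60 moved by less than their interval under median-ratio scaling and without each gene's top cell, 58 without the highest Scrublet scores and 45 with equal cell weights. In conventional CD4 members alone 32 moved further and 27 did not, and in regulatory members alone 26 moved further, 29 did not and 3 reversed: Ms4a4c (depleted anti-CTLA-4 over anti-CTLA-4, 1.503), and Tox2 (0.857) and Tnfsf8 (0.817), both depleted anti-CTLA-4 over depleted isotype. The 43 to 128 members per library limit every value.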

Other observations

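T cell receptor beta segments were read from expression. The most frequent segment among members was Trbv13-2 in the depleted anti-CTLA-4 library (18 of 120 members with a segment, against 751 of 7146 other T cells) and in the depleted isotype library (21 of 115, against 707 of 7101). It was Trbv19 in the anti-CTLA-4 library (8 of 70, against 354 of 4161) and in the isotype library (9 of 43, against 249 of 3317), and Trbv16 in the saline library (6 of 40, against 244 of 3626). Each segment was picked as the highest of its library, so the gap to other T cells is a description, and sequences of the joined receptors were not used.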
